A study of Homo sapiens with 8 samples.

Results

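Membrane transporter and channel genes code for the proteins that carry ions, nutrients, metabolites and metals across the plasma membrane and the membranes of organelles. In the authors' deposited table of differential m6A peaks, 28 of 1262 peaks belonged to such genes. These peaks were listed under 27 of the 1103 Ensembl gene IDs and lay in 26 genes. Members were chosen by their symbols and by a limit on the ID number. The symbols had to begin like those of solute carriers (SLC, SLCO, MFSD), ABC transporters, P-type and V-type ATPases, ion channels (KCN, CACN, SCN, CLCN, ANO, LRRC8, TRP, PIEZO, TMC), aquaporins or connexins of the GJA group. SLC2A1 and IDs with the highest numbers were left out. The last ID inside that limit was ENSG00000204282, whose peak in TMC6 had a log2 change of -4.99. The first outside it was ENSG00000285779, whose peak in SLC39A1 had a log2 change of -2.16. TMCC1 entered by its first letters only and is not a transporter or channel.

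MeRIP-seq was performed on ARPE-19 cells, an established human line of retinal pigment epithelium (RPE), to find transcripts whose m6A depends on METTL3. The sh-METTL3 cells carried a lentiviral short hairpin against METTL3, the sh-Control cells carried a scramble hairpin, and the study selected stably infected cells with antibiotics. Whether a group was a pool or a single clone is not given in the sources used here. Both groups were stimulated with LPS at 1 ug/ml for 24 h, so no group without LPS entered the comparison. Each group had 3 m6A IP libraries and 1 input library, 8 libraries in all. The deposited table combines the libraries of a group, so the depth of each library, the spread between replicates and a test between the groups are not given here, and every value below stands without a replicate check.

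m6A is written on mRNA in the nucleus by a complex whose catalytic subunit is METTL3, and proteins that bind the mark alter the stability, splicing and translation of the transcript. In MeRIP-seq, fragments pulled down by an anti-m6A antibody (IP) are set against fragments that were not (input), and a region rich in IP fragments is called a peak. The RPE is the transporting epithelium between the photoreceptors and the choroidal blood. It passes glucose, amino acids and vitamins towards the retina, removes lactate, water and ions from it, and uses calcium, potassium and chloride channels to do so.

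For each peak the table gives the fold enrichment of IP over input, called enrichment below, and the change in m6A on the log2 scale, called log2 change, with the q-value of the comparison. Positions are on hg38, and the percent of the control is computed from the log2 change. The table does not name the group in the numerator. The sign was taken as sh-METTL3 over sh-Control because all 20 peaks of the 15 genes that the study selected for lower m6A are negative, and with the opposite reading every direction given here would turn round. Of the 11 RPE marker genes looked up, OTX2 had a listed peak (log2 change 0.99, enrichment 36.8), and none of the 9 markers of fibroblasts, endothelium and leukocytes had a listed peak. A list of differential peaks says nothing about expression, so these counts neither support nor question the cell type. Of the 10 genes of the m6A machinery looked up, WTAP had a listed peak, which reaches past the start of its span, and METTL3 had none, and the knockdown itself was not measured here.

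Of the 28 transporter and channel peaks, 22 had lower m6A in the METTL3-silenced cells and 6 had higher m6A. Lower peaks thus made up 78.6% (95% Wilson interval 60.5% to 89.8%, for counting error only), beside 72.1% of all listed peaks, which lies inside the interval. The interval treats the 28 peaks as independent, although the TMC6 region is counted under both its IDs and PIEZO1 has 2 peaks. The members were also chosen with earlier results known, so the interval is a description and not a test. Of the 26 genes, 20 were lower throughout, 6 were higher throughout and 0 had both directions. A log2 change of -1 or below was listed for 18 of the 28 peaks (64.3%), beside 60.5% of all peaks. A log2 change of 1 or above was listed for 4 of the 28 (14.3%), beside 16.8% of all peaks. A q-value of 0.01 or below was listed for 16 of the 28 (57.1%), beside 68.5% of all peaks. These shares lie near the background of the whole list and set the genes apart in no direction. The libraries came from bulk RNA, so fewer cells carrying the mark and less m6A in each cell cannot be told apart.

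The median log2 change of the 22 lower peaks was -1.80, beside -1.70 for all 910 lower peaks listed. That of the 6 higher peaks was 1.18, beside 1.19 for all 352 higher peaks, but it rests on few peaks and was 0.63 over the 3 with a q-value of 0.01 or below and 1.88 over the 4 with a log2 change of 1 or above. The lower peaks ran from -5.00 at TMC6 to -0.72 at SLC19A1, and the higher peaks from 0.33 at SLC16A1 to 2.58 at SLC35E2B.

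**Figure D1:**
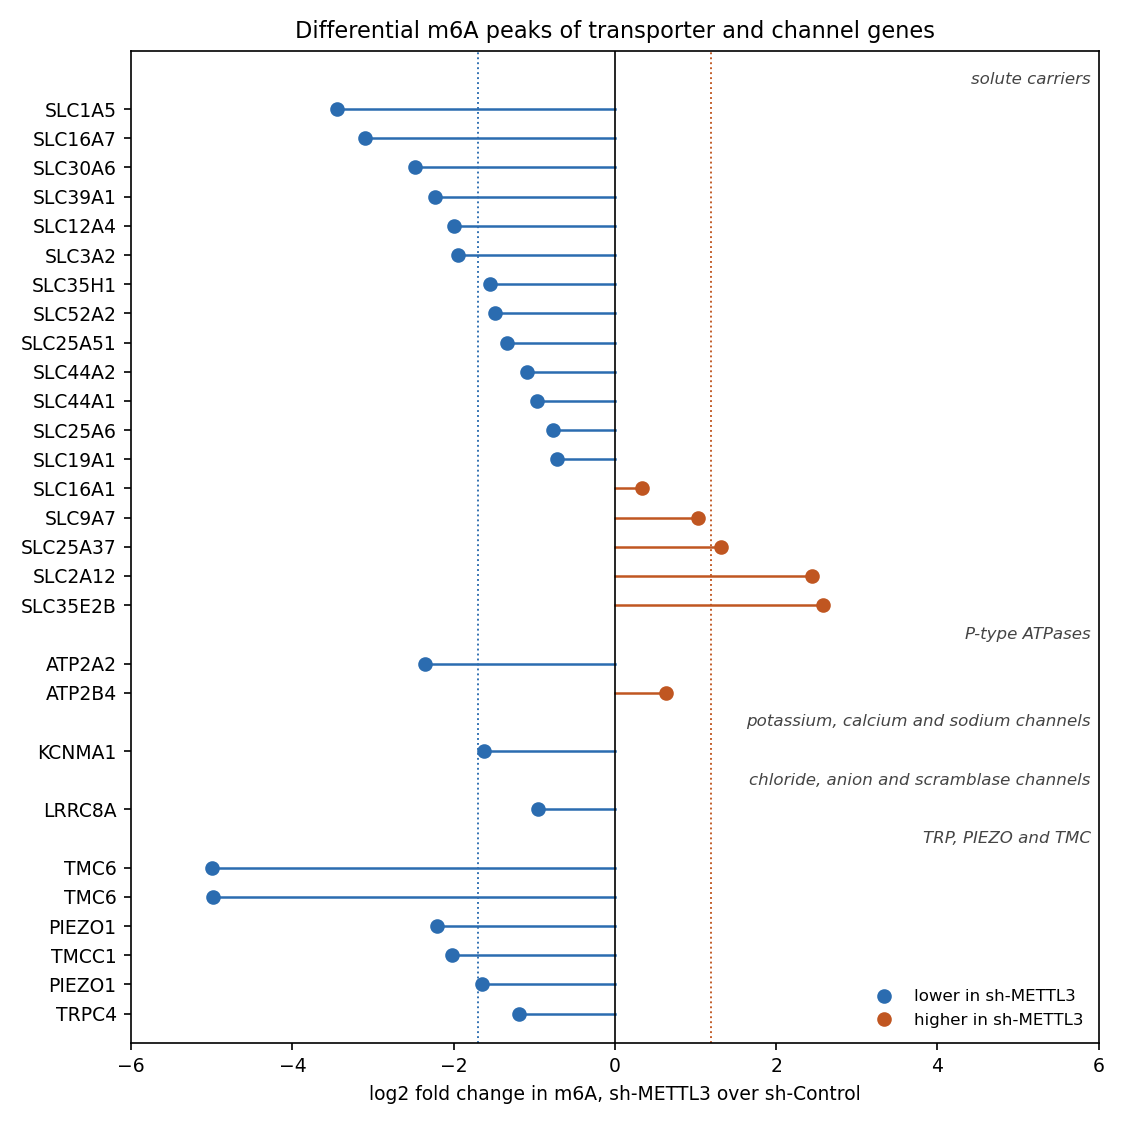
Log2 change in m6A (sh-METTL3 over sh-Control, horizontal axis) of each of the 28 transporter and channel peaks, grouped by class, with 1 row per peak. Blue points are lower and orange points higher in the METTL3-silenced cells, and dotted lines mark the medians of all listed lower (-1.70) and higher (1.19) peaks. The 6 peaks of the TRP, PIEZO and TMC class, which count the TMC6 region under both its IDs and include TMCC1, lie on the lower side, as do 72.1% of all listed peaks. Of the 28 peaks 18 belong to solute carriers, and so do 5 of the 6 higher ones.

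Solute carriers held 18 of the peaks, in 18 of the 405 protein-coding genes that RefSeq lists under these symbols, and 13 of the 18 (72.2%) were lower, beside 72.1% of all listed peaks. Pumps and channels held the other 10 peaks in 8 genes, and 9 of the 10 were lower. Without TMCC1 and with the doubly listed TMC6 region counted once, a count chosen after seeing the data, 7 of 8 were lower. ABC transporters (41 coding genes in RefSeq), the V-type ATPase (25) and water channels and connexins (21) had no listed peak, so 3 of the 8 classes were empty. Of all 20052 coding genes in RefSeq, 935 (4.66%) had a listed peak under an ID inside the limit, beside 26 of the 742 (3.50%) with transporter and channel symbols, 18 of 405 (4.44%) for solute carriers and 4 of 43 (9.30%) for TRP, PIEZO and TMC symbols, TMCC1 included. These counts are a description only. Which of these genes ARPE-19 cells express was not measured here, and a gene that is not expressed cannot have a peak.

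The amino acid transport genes listed, SLC1A5 and SLC3A2, had lower m6A (2 of 2, beside 72.1% of all listed peaks). SLC1A5, a sodium-dependent exchanger of neutral amino acids that brings glutamine into cells, had the largest fall of the solute carriers. Its peak at chr19:46775418-46775656 was a single block of 239 nt that ended 535 bases before the end of the gene. The log2 change was -3.45 with an enrichment of 3.62 and q = 0.0224, which left 9.15% of the enrichment in the control. Among all 1262 peaks this fall ranked 53. SLC3A2 codes for the heavy chain that brings several light-chain amino acid transporters to the cell surface. Its peak at chr11:62880578-62881208 had 2 blocks of 23 and 337 nt, an enrichment of 9.79 and a log2 change of -1.95 with q = 3.89e-06. SLC3A2 is shown with sequence because its peak spans an annotated start of the gene, at base 62880896, and begins its second block 24 bases before it. The stretch below is chr11:62880866-62880925 on the plus strand of GRCh38.p14 from RefSeq, written from upstream to downstream, with the bases under the m6A peak in capitals.
SLC3A2: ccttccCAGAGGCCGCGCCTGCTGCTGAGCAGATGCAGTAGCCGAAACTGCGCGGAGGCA
In these 60 bases, 54 lie under the peak. Which transcript of SLC3A2 carried the m6A was not analysed here.

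The monocarboxylate transporters, which move lactate and pyruvate together with a proton, differed in direction. SLC16A7 had the second largest fall among solute carriers. Its peak at chr12:59775240-59779427 had blocks of 236 and 5 nt, an enrichment of 8.54, a log2 change of -3.10 and q = 0.00363, leaving 11.7% of the control. SLC16A1, which lies in the apical membrane of the RPE and takes up lactate from the retina, had the smallest change of all 28 peaks, with a log2 change of 0.33 and q = 0.00417. This peak at chr1:112913667-112917932 was also the widest of the members, with 1254 nt in blocks of 499 and 755 nt, and had an enrichment of 12.7 and a peak p-value listed as 0. The SLC16A1 peak was thus listed at 126% of the control, while the narrow SLC16A7 peak had most of its m6A missing.

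SLC2A12, a facilitative transporter of the glucose transporter family, had higher m6A. Its single block of 390 nt at chr6:133990916-133991305 had an enrichment of 16.2 and a log2 change of 2.44, or 543% of the control, with q = 0.0437. Its rise ranked 60 among all peaks. The q-value lies close to the limit of the list, whose largest log10 q-value is -1.3.

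The zinc transporter genes listed, SLC30A6 and SLC39A1, had lower m6A (2 of 2, beside 72.1% of all listed peaks). Their enrichment was under 6, as for 48.4% of all lower peaks. SLC30A6, a Golgi member of a zinc transporter family, had a log2 change of -2.48, an enrichment of 2.41 and q = 0.0141 at chr2:32222227-32222437, a single block of 211 nt. SLC39A1, a zinc importer of the plasma membrane, had a log2 change of -2.23, an enrichment of 4.80 and q = 0.00589 at chr1:153959848-153960088, a single block of 241 nt that ended 738 bases before the end of the gene. The enrichment left was 17.9% of the control for SLC30A6 and 21.3% for SLC39A1. The SLC39A1 region appears in the table again under ENSG00000285779, the ID outside the limit on numbers, with 227 shared bases on the same strand and a log2 change of -2.16.

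The inorganic ion carriers split by direction. SLC12A4, a cotransporter of potassium and chloride that serves volume regulation, had the lowest enrichment and the narrowest peak of the members, with 2.30 and 181 nt in blocks of 110 and 71 nt. Its log2 change at chr16:67946524-67947007 was -2.00 with q = 0.000138, leaving 25% of the control. SLC9A7, an exchanger of sodium or potassium for protons in the Golgi, had higher m6A at chrX:46600090-46600540, a single block of 451 nt that ended 839 bases before the end of the gene. Its log2 change was 1.03, or 204% of the control, with an enrichment of 20.7 and q = 0.0389.

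The 4 genes that carry vitamins and choline were all lower (4 of 4, 95% Wilson interval 51.0% to 100%, beside 72.1% of all listed peaks), with a median log2 change of -1.03. SLC52A2, a riboflavin transporter, changed most of these, with a log2 change of -1.49, an enrichment of 3.27 and q = 0.0457 at chr8:144360928-144361167, a block of 240 nt that ended 105 bases before the end of the gene. The choline transporter-like genes SLC44A2 and SLC44A1 had log2 changes of -1.09 and -0.97, with enrichments of 5.30 and 15.4. SLC19A1, the reduced folate carrier, had the smallest fall of all members, with a log2 change of -0.72, an enrichment of 3.86 and q = 0.0055 at chr21:45504117-45512836, in blocks of 5 and 475 nt. Its peak shares 462 bases with a listed peak of COL18A1 on the opposite strand, which had a log2 change of -0.68 and an enrichment of 3.85. Whether reads were counted by strand is not given in the sources used here, so reads of SLC19A1 and COL18A1 in this region cannot be told apart.

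Mitochondrial carriers had wide peaks, between 801 and 900 nt. SLC25A51, which brings NAD into mitochondria, had the highest fold enrichment of the members at 63.4, rank 49 among all peaks, in a single block of 835 nt at chr9:37887660-37888494. Its log2 change was -1.34 with q = 0.00126, leaving 39.5% of the control. SLC25A37, the mitochondrial iron importer mitoferrin, had higher m6A at chr8:23543190-23566985, with blocks of 22 and 878 nt, an enrichment of 31.7, a log2 change of 1.32 and q = 3.63e-08. SLC25A6, an ADP/ATP carrier, had a log2 change of -0.77, an enrichment of 3.55 and q = 4.27e-08 at chrX:1386152-1389292, in 3 blocks of 608, 141 and 52 nt that reached the last base of the gene. SLC25A6 lies in the region shared by both sex chromosomes and has close paralogs, and how reads matching several copies were counted is not given in the sources used here.

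The SLC35 family, related to nucleotide sugar transporters of the Golgi and endoplasmic reticulum, had a peak in each direction. SLC35E2B had the largest rise of the members, with a log2 change of 2.58, or 598% of the control, an enrichment of 9.22 and q = 0.0229 in a block of 331 nt at chr1:1663233-1663563. It ranked 55 among all rises. SLC35E2B has a near-identical neighbouring copy, SLC35E2A, so this value is uncertain where reads could be split between them. SLC35H1, also known as SLC35C2, had a log2 change of -1.55, an enrichment of 6.58 and q = 0.00813 in a block of 421 nt.

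The calcium pumps that lower cytosolic calcium went opposite ways. ATP2A2, which pumps calcium into the endoplasmic reticulum, had a log2 change of -2.36, an enrichment of 10.7 and q = 1.15e-05 at chr12:110281596-110282610, in blocks of 323 and 7 nt that began 980 bases after the start of the gene. ATP2B4, which expels calcium across the plasma membrane, had a log2 change of 0.63, an enrichment of 13.6 and q = 2.51e-13 at chr1:203739565-203740193, a single block of 629 nt. The enrichment left at ATP2A2 was 19.5% of the control, and that at ATP2B4 was 155%. The ATP2B4 q-value was the smallest of the 6 higher peaks although its change was modest, and the peak's own p-value is listed as 0. The other 39 genes with P-type ATPase symbols had no listed peak.

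The ion channel genes among the members had lower m6A, as had 72.1% of all listed peaks, and so few genes do not set channels apart from the list. KCNMA1, the pore of the calcium-activated potassium channel of large conductance, was the only gene listed of 141 (0.709%) with potassium, calcium or sodium channel symbols, beside 4.66% of all coding genes. Its single block of 210 nt at chr10:77637560-77637769 had a log2 change of -1.63, an enrichment of 3.67 and q = 0.0191, leaving 32.3% of the control. The peak began 39 bases after the start of the RefSeq gene span, closer to that outer start than any other member, and KCNMA1 is shown with sequence for that reason. The stretch below is chr10:77637759-77637788 on the minus strand of GRCh38.p14 from RefSeq, 5' to 3', and ends with the 11 bases of the m6A peak that the promoter window holds, in capitals.
KCNMA1: gcgcctccccgcccccctcCCGCGCTCCGC
The first base in capitals is base 40 of the gene, counted from 1 at the annotated start, 77637808. Promoter windows, from 250 bases before to 50 bases after an annotated start, were given for 22 of the 26 genes, and the peaks of SLC3A2 and KCNMA1 were the 2 of the 28 (7.14%) that touched one. Of all listed peaks 7.21% touched a same-strand window of any gene, while a member counted only by windows of its own gene. The shares are thus not counted alike.

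LRRC8A, the obligatory subunit of the volume-regulated anion channel, was the only gene listed of 25 (4%) with chloride, anion or scramblase channel symbols. Its single block of 689 nt at chr9:128907274-128907962 had a log2 change of -0.95, an enrichment of 4.85 and q = 2.04e-05, leaving 51.8% of the control. TRPC4, a cation channel opened downstream of receptors coupled to phospholipase C, had a log2 change of -1.19, an enrichment of 36.2 and q = 0.0204. The TRPC4 peak spanned introns from 37692033 to 37783267 on chromosome 13, and its 3 blocks of 303, 519 and 312 nt made it the second widest member at 1134 nt.

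PIEZO1, a cation channel opened by mechanical force, was the only member with separate peaks. The peak nearer the start of the gene, chr16:88722664-88723961, had 5 blocks and 450 nt, with a log2 change of -2.21, an enrichment of 5.43 and q = 2.51e-15, the smallest q-value of the members. The other, chr16:88720674-88721361, had blocks of 75 and 196 nt, a log2 change of -1.65, an enrichment of 5.05 and q = 7.24e-07. A gap of 1302 bases lay between them on the genome, and their distance along the mRNA was not computed. Both regions of the transcript were enriched less than the median listed peak (8.43) and were lower, at 21.6% and 31.9% of the control, and with no replicate values the difference of -0.56 between them was not tested.

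**Figure D2:**
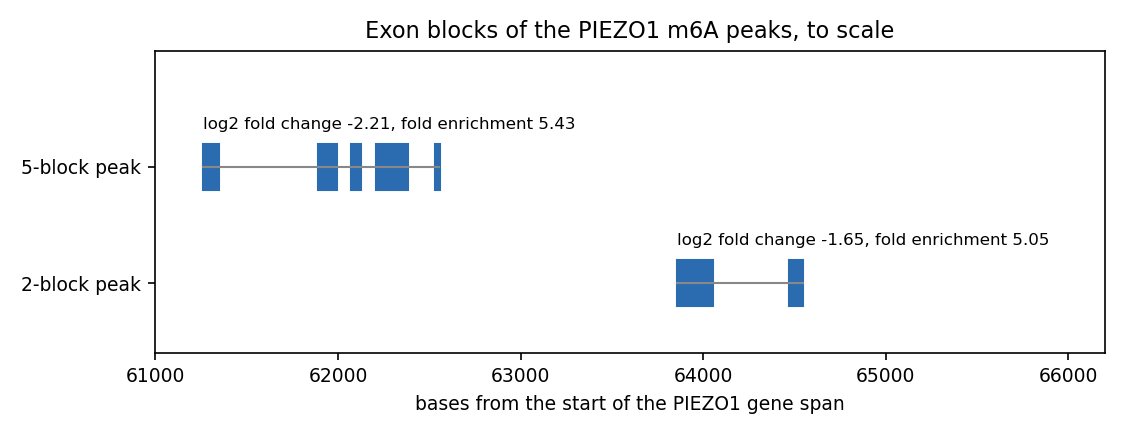
Blocks of the 2 PIEZO1 peaks drawn to scale by their distance in bases from the start of the gene span (horizontal axis), in the direction of transcription. Filled boxes are the blocks under each peak and the line joins blocks of the same peak. The 5-block peak (log2 change -2.21) lies before the 2-block peak (-1.65).

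The largest falls of all members were at TMC6, a membrane protein of the transmembrane channel-like family. ENSG00000141524 at chr17:78111208-78111538 (331 nt) and ENSG00000204282 at chr17:78111200-78111589 (390 nt) had log2 changes of -5.00 and -4.99, the falls ranked 2 and 3 of the 1262 peaks. Both had an enrichment of 45.8 and q = 0.0263, and about 3.13% and 3.15% of the control was left. All 331 bases of the shorter peak lie inside the longer one on the same strand, so this is a single region listed under both IDs. RefSeq gives TNRC6C-AS1 as another name of TMC6, and both IDs were named by position only. ENSG00000204282 may thus stand for another gene at this place, such as an antisense or readthrough gene, and its membership is not settled. The number of reads behind the small remainder in the METTL3-silenced cells is unknown. TMCC1, the letter match, codes for a coiled-coil protein of the endoplasmic reticulum. It had a log2 change of -2.02, an enrichment of 37.7 and q = 0.0126 in blocks of 24 and 575 nt at chr3:129656703-129670904.

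The member peaks had a median fold enrichment of 8.88, beside 8.43 for all listed peaks. The 22 lower members had a median of 5.37 (all lower peaks 6.22) and the 6 higher members 14.9 (all higher peaks 20.3), the same order as in the whole list. An enrichment under 6 was listed for 12 of the 22 lower members (54.5%), beside 48.4% of all lower peaks, and for 0 of the 6 higher members, beside 12.2% of all higher peaks. The most enriched members, SLC25A51, TMC6, TMCC1 and TRPC4, were nevertheless all lower. The median width was 405.5 nt, beside 419 nt for all peaks, and it was 375 nt for lower and 540 nt for higher members, beside 360 and 569.5 nt for all lower and all higher peaks. Several blocks made up 12 of the 28 peaks (42.9%), beside 35.8% of all peaks.

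**Figure D3:**
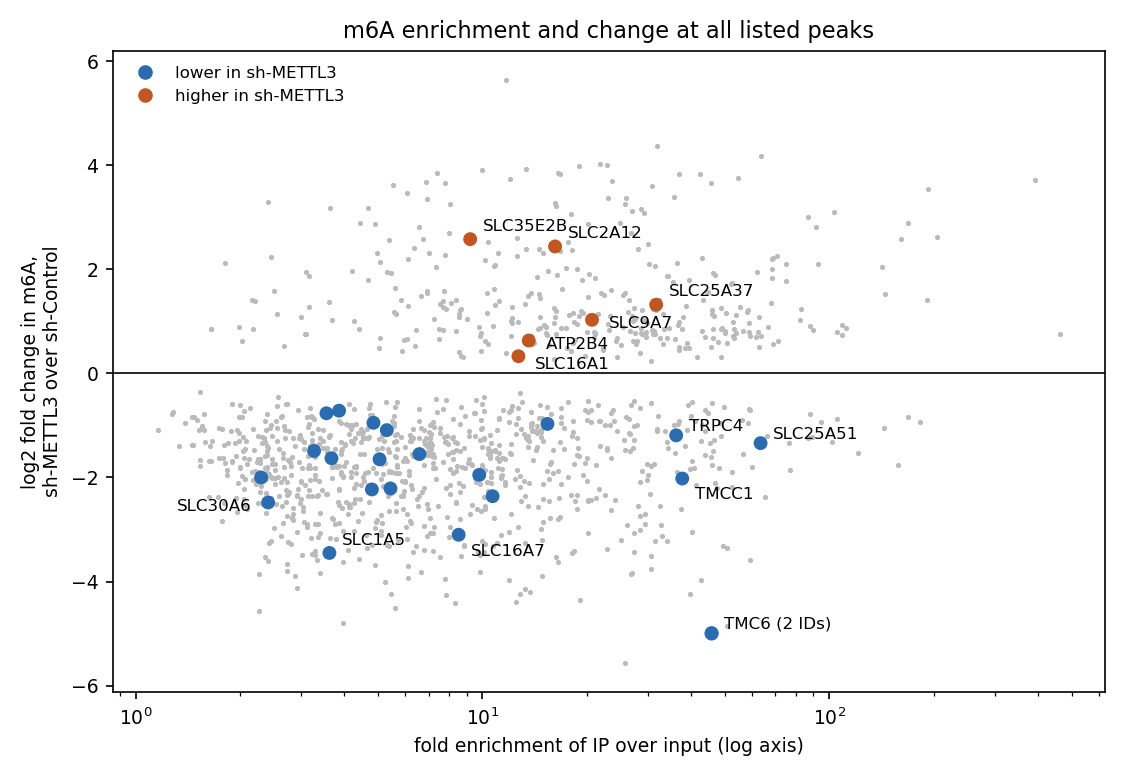
Fold enrichment of IP over input (horizontal log axis) against log2 change in m6A (vertical axis) for all 1262 listed peaks, with transporter and channel peaks as large blue (lower) and orange (higher) points and the other peaks in grey. The 6 higher members lie between 9.22 and 31.7, while the 22 lower members run from 2.30 to 63.4.

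Most member peaks lay late in the gene. The middle of the peak fell past 75% of the gene's span in 21 of the 28 members (75%), beside 55.0% of the 1143 listed peaks that lie inside a named gene. The 1143 include noncoding genes, pseudogenes and IDs of any number, while the members are coding genes under the limit, so the sets are unlike. The 21 count the TMC6 region under both its IDs and include TMCC1. SLC44A1 and SLC3A2 lie just past the line, at 75.5% and 75.7%. No interval and no alternative setting was computed for this share. The median place was 89.4% of the way along the span, beside 79.4%. The middle lay past 75% in 16 of the 22 lower and 5 of the 6 higher members, with median places of 85.5% and 94.2%, and a difference between the directions was not tested. A peak within 1000 bases of the gene's end was listed for 6 of the 28 (21.4%), beside 20.3% of the named peaks. A peak within 1000 bases of the start of the gene's span was listed for 2 (7.14%), KCNMA1 and ATP2A2, beside 15.1%. SLC3A2 is not among them, since its peak spans an inner annotated start that lies far from the start of the span (24469 bases to the peak). The span includes introns, so a place along it is not a place along the mRNA, and the coding and untranslated parts of the transcripts were not analysed here.

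**Figure D4:**
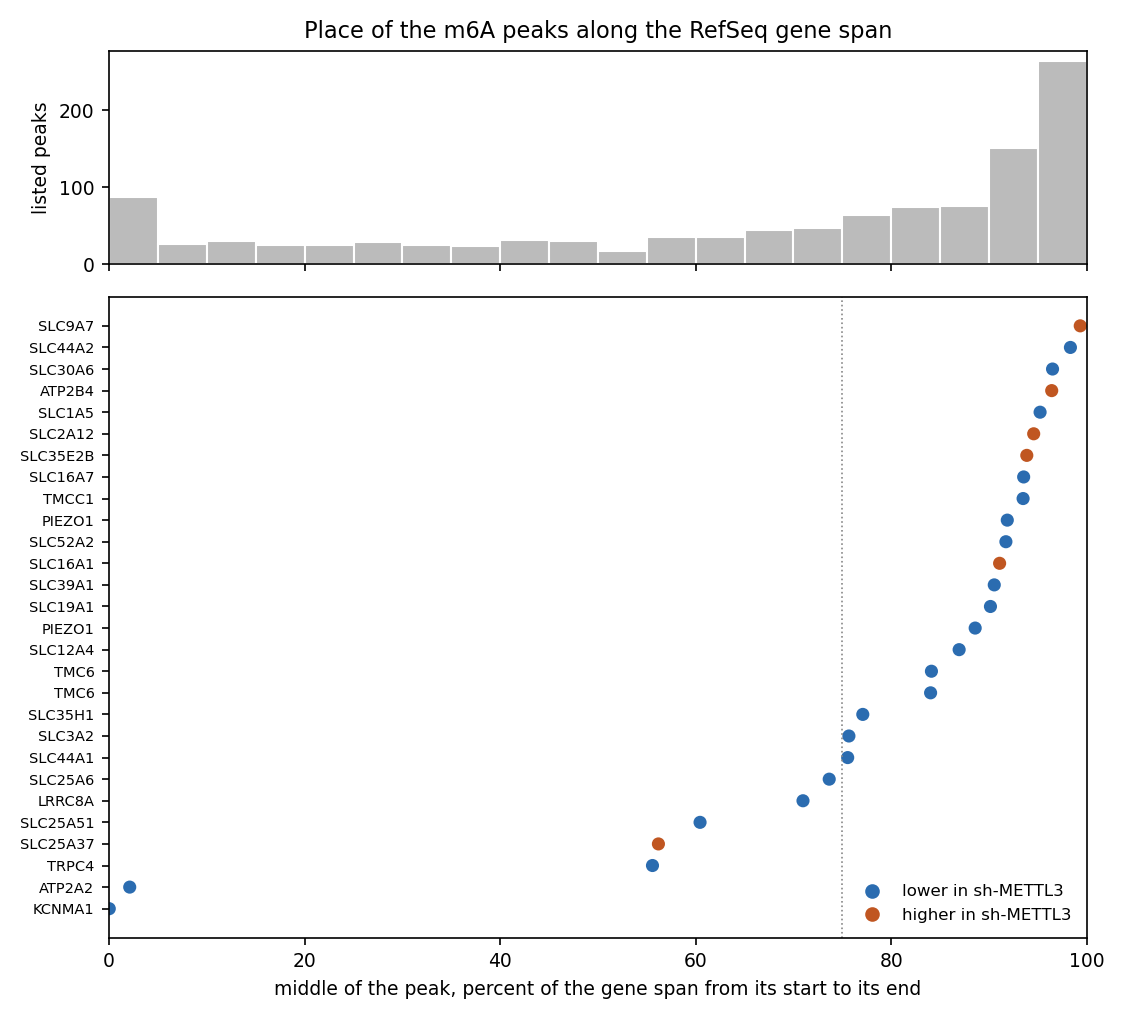
Middle of each peak as a percent of the RefSeq gene span from start to end (horizontal axis). The upper panel counts the 1143 listed peaks inside a named gene in steps of equal width, and the lower panel has 1 row per member peak, blue for lower and orange for higher m6A. Past the dotted line at 75% lie 21 of the 28 members.

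Of 49 genes of epithelial transport in the RPE, 6 had a listed peak (12.2%), beside 4.66% of all coding genes, and the list was chosen with earlier results known. SLC1A5, SLC12A4, SLC19A1 and LRRC8A were lower and SLC16A1 and ATP2B4 were higher, beside 72.1% lower among all listed peaks. The 4 lower genes had low enrichment, between 2.30 and 4.85, and the 2 higher genes had enrichments of 12.7 and 13.6. The whole list has the same order, with medians of 6.22 for all lower and 20.3 for all higher peaks. The sodium pump, the bicarbonate and taurine carriers, the inward rectifier KCNJ13, AQP1 and GJA1, which are among the other 43 genes of that list, had no listed peak. A gene without a listed peak may have unchanged m6A, no m6A or no expression, and the table does not tell these apart.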

How the data were processed

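MeRIP-seq libraries of LPS-stimulated ARPE-19 cells (sh-Control and sh-METTL3, 3 m6A IP and 1 input each) were grouped by their labels. The submitters' processing notes name CASAVA, fastp 0.19.11, MACS2 2.1.0 and hg38, without their roles. The authors deposited 1 table of differential peaks with 18 columns, in the form written by exomePeak, with the libraries of each group combined. Each peak has a p-value and a ratio (fold enrichment of IP over input) computed by the authors. The comparison columns are also the authors' own results: the deposited log2 fold change and, as negative scores, the deposited log10 of its p-value and q-value. They are printed as the authors' pooled values, since the table has no values per library, and were not recomputed or tested. Peaks without a difference are not listed, and depth is unknown. Log-scaled copies of each peak's significance contain spreadsheet error text and were not used.

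Positions were made 1-based and widths are sums of blocks. The percent of the control is 2 raised to the log2 fold change. Each ID was named after the only RefSeq gene (GRCh38.p14), or the only coding one, that contains all its peaks and is not on the other strand (997 of 1103 IDs, among them all 27 member IDs). Where none contains them, the only such coding gene that they touch was taken (49 IDs), and 57 stayed unnamed. The deposited table gives the strand of every peak, but the RefSeq tables used here give none for SLC16A1, SLC25A37, SLC35H1 and SLC52A2. These 4 genes were named by containment alone, and their distances to gene ends use the strand of the peak. Shares of lower peaks have 95% Wilson intervals. The members and all gene lists were chosen with earlier results of these data known, so lists are described by counts and medians beside those of all listed peaks. Every member is named. Full values go to the 8 largest falls and rises, the 5 smallest q-values, the 5 largest and 3 smallest fold enrichments, genes with several peaks, the RPE list and the 3 widest peaks, and SLC3A2 and KCNMA1 were added after their values were seen. Alternatives kept only peaks with a log2 change of 1 or more in either direction, q of 0.01 or below, or 2-fold enrichment or more, and further alternatives were 1 peak per gene, overlapping peaks (1 shared base) kept once, the letter match left out, and other naming rules. Calculations ran in Python 3.11.15 (numpy 2.4.6, pandas 2.3.3, scipy 1.17.1) and figures were drawn with matplotlib 3.10.9.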

Additional observations from a re-analysis of the deposited data

How the results depend on the processing

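Over 8 results, 53 alternative values were computed, of which 51 lay inside the 95% interval of the share or median, or, for counts, within 1.5 times the first count. The limit of 2-fold enrichment and naming by a containing gene only kept all 28 peaks, so the values under them could not move. Keeping 1 peak per gene, keeping overlapping peaks once and leaving out TMCC1 removed only lower peaks of pumps and channels. The median of the 6 higher peaks and the count of 18 solute carrier peaks could thus not move under these settings either. The number of values that stayed inside is therefore a weak measure of stability. The interval for the median of higher peaks rests on 6 peaks and held both 0.63 and 1.88, so it says little about stability. The setting for pumps and channels with overlapping peaks kept once and TMCC1 left out (8 peaks) was chosen after seeing the data. With q of 0.01 or below, solute carriers went from 18 peaks to 11 and pumps and channels from 10 to 5, because this limit keeps only 16 of the 28 peaks. The share of lower peaks ran from 76.9% (1 peak per gene) to 81.8% (log2 change of 1 or more in either direction). The median log2 fold change of lower peaks ran from -1.65 to -2.01. That of higher peaks, over few peaks, was 0.63 for the 3 with q of 0.01 or below and 1.88 for the 4 with a log2 change of 1 or above, against 1.18 for all 6. The median fold enrichment ran from 6.01 to 8.88, and the median width from 345.5 to 465 nt. Membership was 27 peaks when strand was not used for naming, which lost SLC19A1, 29 with IDs of any number and 27 without TMCC1.

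No paired analysis was possible because each group's libraries are combined in the deposited table, and no library was left out in turn for the same reason. The motif under the peaks, with its alternative, was not run, since it needs the sequence under all peaks and only promoter windows were given. Depth is unknown, so which changes rest on few reads cannot be said.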

Other observations

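In a list of 61 other transport genes that are not members, 2 had a listed peak (3.28%), beside 4.66% of all RefSeq coding genes. Of these, SLC2A1 has a member symbol and was left out by name. The list is not complete, so its share is a description only. CATSPER1 (log2 change -1.37) and CTNS (-2.8), further transport genes with a listed peak, are not on it. GJC1, a connexin of gap junctions, had the highest enrichment of all 1262 peaks at 462, in a peak of 1379 nt at chr17:44804201-44805579, with a log2 change of 0.76, or 169% of the control (q = 0.00302). SLC2A1, the main glucose transporter of the RPE, stood at the other end, with an enrichment of 1.80, rank 1229, a log2 change of -2.49 and q = 4.17e-08. Its peak touches the gene but reaches past the start of the RefSeq span, so the name rests on the touch alone. Glucose transporter genes were thus listed in both directions, SLC2A1 lower and SLC2A12 higher. Ryanodine and inositol trisphosphate receptors, store-operated channels, BEST1, CFTR and the mitochondrial porins, which are on the same list, had no listed peak.

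WTAP, a partner of METTL3 in the m6A writer complex, had higher m6A in a peak of 721 nt at chr6:159726245-159726965, with an enrichment of 68.6, rank 41 of all peaks, and a log2 change of 2.20, or 459% of the control (q = 0.00132). The name rests on the touch alone here too, since the middle of the peak lies before the start of the RefSeq span of WTAP. SLC2A12 and SLC35E2B had somewhat larger rises and were much less enriched.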
